A study of Mus musculus with 15 samples.

Results

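Gata4, Gata6, Onecut2, Cdx1, Cdx2, Hnf4a and Hnf4g encode transcription factors that set position along the gut, from duodenum to colon. They were chosen by name, and each was found under 1 Ensembl identifier in all 15 libraries, giving 7 of the 37620 identifiers measured. The libraries are RNA from the ileum, the last segment of the small intestine, of adult mice, and the values are raw read counts per gene. The study compared mutant mice (Rfx6f/f Vilin-CreERT2, as the labels spell it) with controls that carried loxP-flanked Rfx6 and no recombinase. Rfx6 is a transcription factor of hormone-producing gut cells, and the Villin promoter drives the tamoxifen-dependent recombinase in the intestinal epithelium. Every group, controls included, received 10 mg tamoxifen by gavage, 2 times a day on alternate days over 5 days. At 8 days after tamoxifen there were 3 controls (Rfx6f/f) and 4 mutants, and at 3 months there were 4 controls (2 Rfx6f/f and 2 Rfx6f/+) and 4 mutants. Ages and strains were not given in the sources used here.

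GATA4 and GATA6 are zinc finger factors of the gut epithelium. GATA4 is known in mice as a factor of duodenum and jejunum whose level falls towards the distal ileum, where bile acid uptake genes are on, while GATA6 is present along the whole intestine. CDX1 and CDX2 are homeodomain factors that keep epithelium intestinal rather than gastric, HNF4A and HNF4G are paired nuclear receptors that drive enterocyte genes, and ONECUT2 is a homeodomain factor of the proximal small intestine.

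The RefSeq promoter table (build GRCm38.p6, 250 bases before to 50 after each start) held 2 of the 7 members, Cdx2 and Hnf4a, the latter with 2 start sites. Their promoters are shown with those of Lct, the lactase gene of the proximal small intestine, whose level ran beside Gata4 at 8 days, and of Slc10a2, the ileal bile acid transporter, whose level did not. Capitals mark matches to any of 7 short motifs searched on both strands. These were AGATAA and TGATAA for GATA factors, TTTATG and TTTATT for CDX factors (these share their first 5 letters), CAAAGTCCA and CAAAGGTCA for HNF4 factors, and GTTAAT for HNF1 factors.
Cdx2 (chr5:147307200-147307499, minus strand): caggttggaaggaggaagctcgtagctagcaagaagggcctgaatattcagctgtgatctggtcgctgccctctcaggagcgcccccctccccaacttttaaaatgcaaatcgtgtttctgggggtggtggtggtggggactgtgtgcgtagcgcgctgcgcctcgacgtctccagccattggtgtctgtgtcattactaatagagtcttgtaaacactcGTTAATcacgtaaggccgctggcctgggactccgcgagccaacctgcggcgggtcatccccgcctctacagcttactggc
Hnf4a, upstream start (chr2:163506607-163506906, plus strand): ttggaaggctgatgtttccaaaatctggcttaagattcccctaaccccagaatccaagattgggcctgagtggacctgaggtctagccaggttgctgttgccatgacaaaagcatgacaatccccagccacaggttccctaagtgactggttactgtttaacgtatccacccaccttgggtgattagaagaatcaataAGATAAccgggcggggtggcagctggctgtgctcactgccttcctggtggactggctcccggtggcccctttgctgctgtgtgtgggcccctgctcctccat
Hnf4a, downstream start (chr2:163546905-163547204, plus strand): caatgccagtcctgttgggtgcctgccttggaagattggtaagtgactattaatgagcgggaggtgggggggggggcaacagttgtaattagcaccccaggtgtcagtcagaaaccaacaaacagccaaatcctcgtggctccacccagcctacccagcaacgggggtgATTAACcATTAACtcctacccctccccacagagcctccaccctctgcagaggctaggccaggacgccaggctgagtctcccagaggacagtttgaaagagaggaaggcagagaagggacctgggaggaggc
Lct (chr1:128328269-128328568, minus strand): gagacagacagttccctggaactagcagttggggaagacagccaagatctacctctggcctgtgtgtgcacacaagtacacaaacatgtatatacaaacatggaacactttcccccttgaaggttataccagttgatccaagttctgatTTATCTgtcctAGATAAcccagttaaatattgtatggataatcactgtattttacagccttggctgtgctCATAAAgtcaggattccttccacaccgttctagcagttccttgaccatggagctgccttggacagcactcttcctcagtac
Slc10a2 (chr8:5105238-5105537, minus strand): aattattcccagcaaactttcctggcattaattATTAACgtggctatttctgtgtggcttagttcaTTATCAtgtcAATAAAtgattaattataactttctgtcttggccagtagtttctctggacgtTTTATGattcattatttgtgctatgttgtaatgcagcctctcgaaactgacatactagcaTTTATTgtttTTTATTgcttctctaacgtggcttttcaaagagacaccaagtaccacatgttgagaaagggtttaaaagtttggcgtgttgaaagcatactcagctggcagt

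A match describes letters in a window and not a bound site. The Lct promoter held AGATAA once on each strand, 101 and 90 bases before the start, and TTTATG on the minus strand. The Slc10a2 promoter held TGATAA on the minus strand and TTTATT at 3 places. It also held TTTATG 122 bases before the start and an HNF1 motif further upstream. The upstream Hnf4a promoter held AGATAA, the downstream one GTTAAT at 2 adjacent places, and the Cdx2 promoter GTTAAT. None of the 5 windows held either HNF4 motif. Over all 32851 promoters of the table, AGATAA was in 11.2%, TGATAA in 9.05%, TTTATG in 11.9%, TTTATT in 19.6%, GTTAAT in 7.10%, CAAAGTCCA in 0.475% and CAAAGGTCA in 0.478%.

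Library totals, in units of 1000000 counts, were 30.5 to 54.5 in the 8-day cohort and 26.1 to 36.3 in the 3-month cohort. Levels below are counts per 1000000 (CPM) with TMM-scaled library sizes, and errors of means are SD over libraries. The labels do not state that animals were reared or processed separately, so p-values measure the spread between these libraries. In bulk tissue fewer cells of a type and less RNA per cell cannot be told apart. Rfx6 itself did not fall in mutants as labelled, with a log2 change of 0.19 (SE 0.18, edgeR quasi-likelihood adjusted p 0.867) at 8 days and 0.72 (SE 0.17, adjusted p 0.0347) at 3 months, where it passed in 9 of 18 alternative settings. The labels do not name the deleted exons, so a count over the whole gene does not check the deletion, and mutant here means a library labelled so. The ileal genes Slc10a2 (195 to 596 CPM) and Fabp6, the ileal bile acid binding protein (557 to 2691 CPM), were present in all 15 libraries.

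Some libraries stood apart. Mutant 2 and mutant 4 of 8 days were far below the other libraries of their cohort in Gata4 and Onecut2. Control 3 and mutant 4 of 8 days held Car1, a colonic carbonic anhydrase, at 165 and 445 CPM, against at most 0.947 CPM in the other 13 libraries. Mutant 4 also held Aqp8, a colonic water channel, at 34.9 CPM and Hoxa13, a hindgut Hox gene, at 0.966 CPM. Control 3 had Aqp8 at 5.88 CPM. The summed level of 5 pancreatic acinar genes (Cpa1, Cela2a, Ctrb1, Pnlip and Cel) ran from 0.170 CPM to 1176 CPM. It was under 1 CPM in control 3 and mutants 1, 2 and 4 of 8 days and highest in control 4 of 3 months. Of 8 stomach genes, Tff2 reached 50.7 and 53.8 CPM in controls 2 and 4 and 30.6 CPM in mutant 1 of 3 months. These pancreatic genes moved with some members. With the group means taken out, the 5 genes had correlations of 0.70 to 0.73 with Onecut2 and 0.45 to 0.51 with Gata4 over the 15 libraries (0.69 to 0.73 and 0.11 to 0.18 without mutants 2 and 4 of 8 days), and the 3 genes most opposite to Cdx1 were the pancreatic Pnliprp1 (-0.87), Ctrl (-0.84) and Ctrb1 (-0.83). The points share their libraries. Apart from a fit at 3 months with the pancreatic level as a covariate, the part of these other tissues in the members' levels was not tested. Several results that rest on such libraries are given with and without them. The within-group SDs and most counts of regional genes are given with all libraries only.

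Divided by exon length, the HNF4 and CDX factors stood above the GATA factors and Onecut2. The mean over 15 libraries was 206 CPM per kb for Hnf4a, 127 for Hnf4g, 87.6 for Cdx2 and 77.6 for Cdx1. Gata6 followed at 8.15, Gata4 at 2.40 and Onecut2 at 0.675 CPM per kb. Neighbours in this order were not always separate. Cdx2 was above Cdx1 per kb in 12 of 15 libraries (ratio 0.816 to 1.41), and Gata4 above Onecut2 in 14 of 15 (0.946 to 9.53). Hnf4a was above Hnf4g in 15 of 15 libraries, with a lowest ratio of 1.01 in mutant 1 of 3 months. Gata6 was above Gata4 in 15 of 15, by a ratio from 1.29 to 47.6.

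Gata4 varied by cohort and by library. At 8 days the controls stood at 12.4, 24.8 and 21.2 CPM and the mutants at 18.3, 0.639, 24.7 and 1.30 CPM. Mutants 1 and 3 thus lay within the control range, while mutants 2 and 4, at 32 and 39 counts, lay below every other library of the series. At 3 months the controls were at 3.24, 3.63, 1.61 and 1.83 CPM and the mutants at 3.08, 6.88, 3.99 and 12.7 CPM. Only mutant 1 of 3 months lay inside the control range, and the other 3 mutants were above it. The ranges of the control groups did not overlap between cohorts.

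Onecut2 showed the same low libraries. The 8-day controls stood at 25.6, 45.4 and 9.26 CPM and the mutants at 14.2, 0.719, 21.8 and 0.633 CPM. Mutants 2 and 4, with 36 and 19 counts, were again the lowest of all libraries, and mutants 1 and 3 lay between the lowest and highest control. At 3 months the values were 5.84, 6.81, 3.22 and 8.03 CPM in controls and 2.42, 4.29, 4.56 and 11.6 CPM in mutants, so those groups overlapped. Mutant 4 of 3 months was highest of its cohort in both Onecut2 and Gata4. Over the 15 libraries the highest Gata4 value was 38.8 times the lowest, and for Onecut2 this ratio was 71.7.

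**Figure D1:**
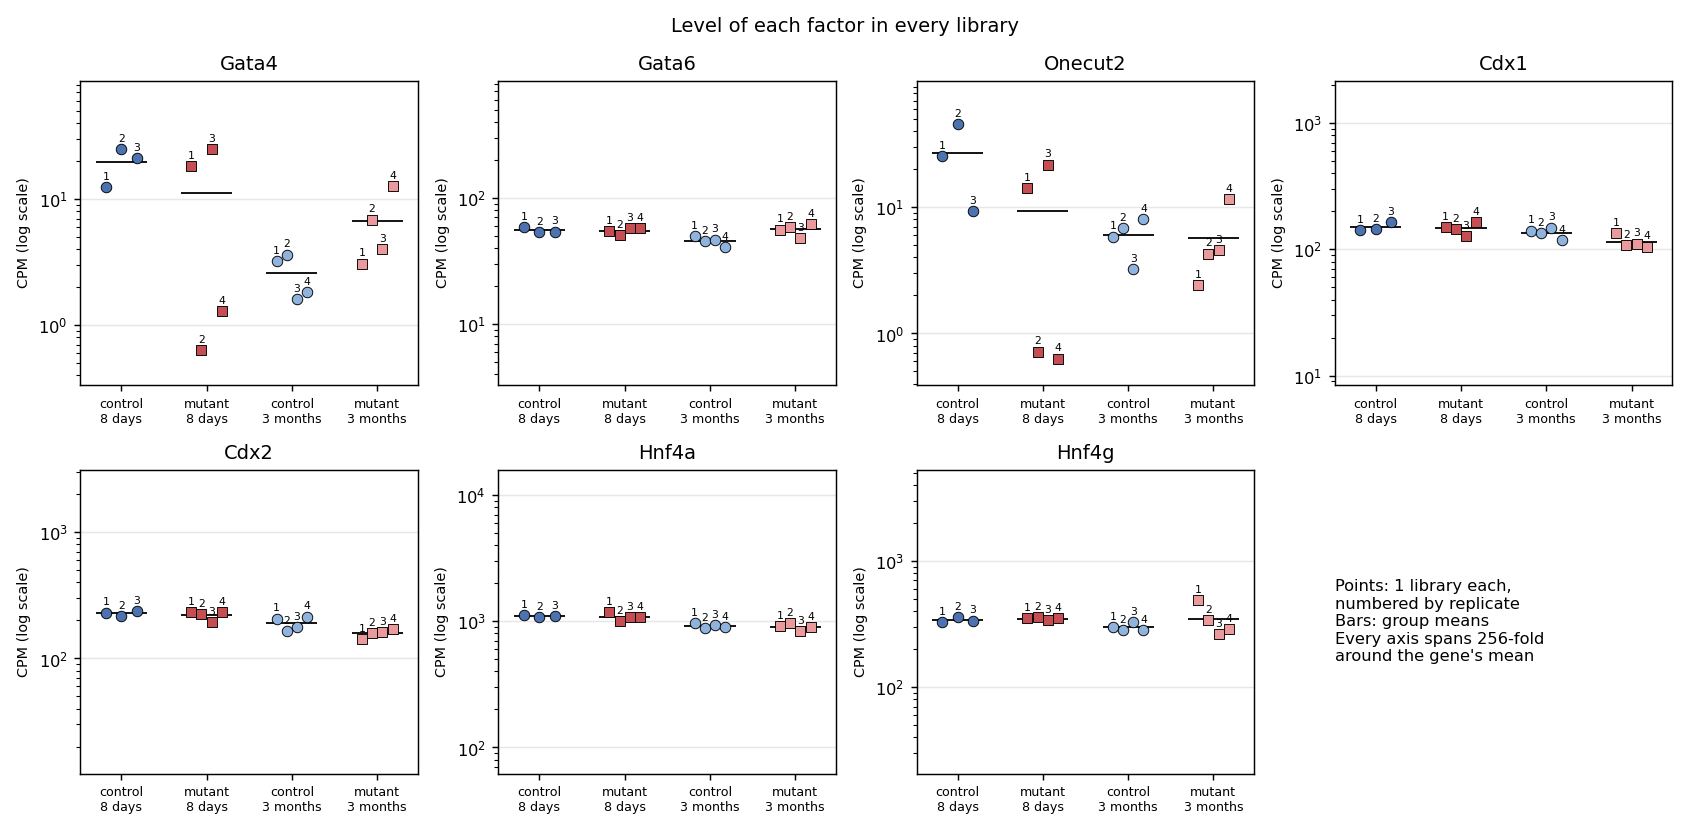
Level of each of the 7 factors in every library, in CPM on a log axis that spans the same fold range in each panel; points are libraries numbered by replicate and bars are group means. Gata4 and Onecut2 spread widely, with mutants 2 and 4 of 8 days at the bottom, while the other 5 factors stay in a narrow band.

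The other GATA factor was far steadier. Gata6 stood at 58.8, 53.3 and 54.0 CPM in 8-day controls and at 54.3, 50.8, 57.7 and 57.8 CPM in 8-day mutants. It was at 49.9, 45.7, 46.7 and 40.8 CPM in 3-month controls and at 56.0, 59.0, 48.3 and 62.3 CPM in 3-month mutants. In mutants 2 and 4 of 8 days, where Gata4 was lowest, Gata6 was at 50.8 and 57.8 CPM, close to the other libraries of 8 days. The highest Gata6 value was 1.53 times the lowest. Gata6 shares 93 exon bases with the opposite-strand transcript 1010001N08Rik, and strand handling was not given in the sources used here, while no other member overlapped another gene's exons.

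The homeodomain pair CDX1 and CDX2 also kept a narrow range. Cdx1 stood at 141, 144 and 165 CPM in 8-day controls, at 150, 146, 127 and 165 CPM in 8-day mutants, at 141, 134, 148 and 118 CPM in 3-month controls and at 135, 107, 111 and 105 CPM in 3-month mutants. The 8-day groups overlapped, and at 3 months 3 of the 4 mutants lay below the lowest control. Cdx2 stood at 231, 217 and 237 CPM in 8-day controls and 234, 226, 195 and 232 CPM in 8-day mutants. At 3 months it was at 207, 165, 178 and 215 CPM in controls and 143, 158, 163 and 171 CPM in mutants. The 3-month mutants, all at or below 171 CPM, were the lowest of the 4 groups in Cdx2, with an overlap only with control 2. The 2 libraries with colonic Car1 had Cdx2 at 237 and 232 CPM and the 2 highest Cdx1 values of the series, both at 165 CPM.

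The nuclear receptors were the most abundant members. Hnf4a, with 24448 counts or more in every library, stood at 1102 ± 15.8 CPM (SD, n = 3) and 1089 ± 72.2 CPM (SD, n = 4) in controls and mutants of 8 days. At 3 months it was at 922 ± 41.1 CPM (SD, n = 4) and 900.0 ± 54.9 CPM (SD, n = 4). The cohorts did not overlap in Hnf4a, since the lowest value at 8 days was 1008 CPM and the highest at 3 months was 971 CPM. Hnf4g stood at 329, 358 and 336 CPM in 8-day controls and 352, 356, 337 and 351 CPM in 8-day mutants, and at 298, 284, 326 and 283 CPM in 3-month controls. The 3-month mutants were at 491, 339, 261 and 289 CPM. Mutant 1 of 3 months, at 491 CPM, was the highest Hnf4g value of the series and the only library above 358 CPM.

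The spread between libraries of the same group set Gata4 and Onecut2 apart. The within-group SD of log2 CPM was 1.49 for Gata4 and 1.58 for Onecut2, against a median of 0.187 over all genes tested. Among the 14775 genes with a mean of at least 1 CPM (log2 CPM of 0), 82 genes varied more than Gata4 and 66 more than Onecut2. The same SD was 0.12 for Gata6, 0.15 for Cdx1, 0.13 for Cdx2, 0.076 for Hnf4a and 0.22 for Hnf4g. Hnf4a varied less within groups than 91.9% of those genes. Gata4 and Onecut2 varied most in the 8-day mutants, the group of the low mutants 2 and 4, with SDs of 2.61 and 2.66. In the other groups the SD was 0.52 to 0.89 for Gata4 and 0.57 to 1.16 for Onecut2.

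**Figure D2:**
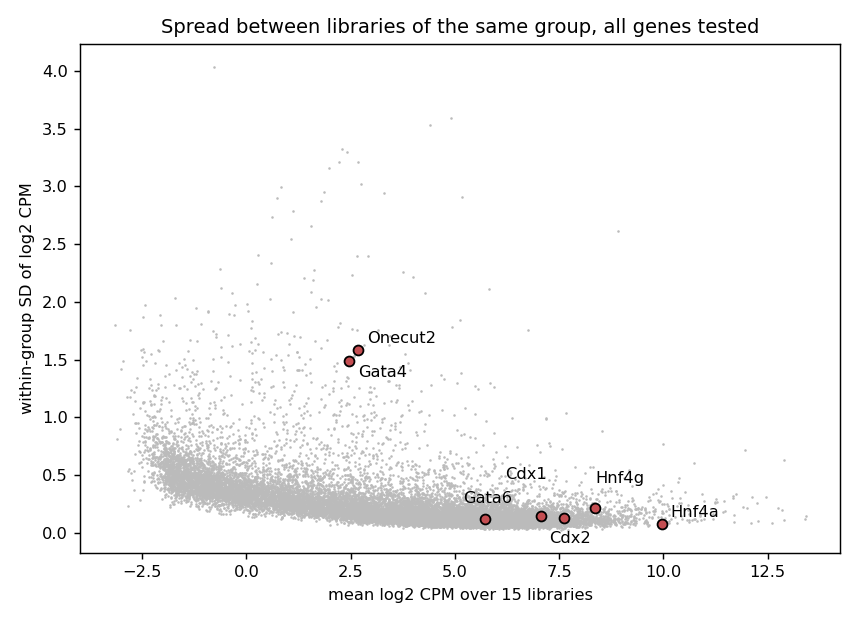
Within-group SD of log2 CPM (y) against mean log2 CPM over 15 libraries (x) for all genes tested in grey and the 7 factors in red. Gata4 (1.49) and Onecut2 (1.58) lie far above the bulk of genes at their level, and the other 5 factors lie within it.

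At 8 days none of the 7 factors was called as different between libraries labelled mutant and control, which does not show that their levels were equal. The edgeR quasi-likelihood test called 0 of 7, where it called 0.0915% of all 17493 genes, and none of the 7 had an unadjusted p under 0.05. DESeq2 and limma-voom also called 0 of the 7. The fitted log2 changes of 5 members were between -0.04 and 0.03, for Gata6 (-0.01), Cdx1 (-0.04), Cdx2 (-0.04), Hnf4a (-0.02) and Hnf4g (0.03), and their 95% intervals lay within -0.26 and 0.19. Those of Gata4 (-0.80, SE 0.98, adjusted p 0.917) and Onecut2 (-1.52, SE 1.05, adjusted p 0.779) had wide intervals, from -3.03 to 1.43 and from -3.90 to 0.86. Without mutants 2 and 4 they were 0.13 and -0.58, a description only since those libraries were singled out by their low Gata4.

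At 3 months no factor passed either, against 9.28% of the 17085 genes tested (4.96% higher and 4.32% lower), although 4 of the 7 had an unadjusted p under 0.05. The closest were Gata6 and Gata4. Gata6 was at 56.4 ± 5.98 CPM (SD, n = 4) in mutants and 45.7 ± 3.75 CPM (SD, n = 4) in controls, a log2 change of 0.32 (SE 0.09, edgeR adjusted p 0.0581). Gata4 was at 6.65 ± 4.32 CPM (SD, n = 4) against 2.58 ± 1.01 CPM (SD, n = 4), a log2 change of 1.37 (SE 0.46, edgeR adjusted p 0.0883). DESeq2 called both, with adjusted p of 0.0144 and 0.0131, and limma-voom called neither (0.0628 and 0.146). Without mutant 4, the library with the most Gata4, the Gata4 change was 0.86 (adjusted p 0.167), and without mutant 3 Gata6 passed at 0.38 (adjusted p 0.038). With Rfx6f/f controls only, the adjusted p was 0.272 for Gata6 and 0.305 for Gata4.

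The remaining factors at 3 months gave no call by any of these 3 tools. Cdx2 was lower in mutants by a log2 value of -0.25 (SE 0.10, edgeR adjusted p 0.132) and Cdx1 by -0.22 (SE 0.10, adjusted p 0.162). Hnf4a stood at -0.02 (95% interval -0.19 to 0.15), Onecut2 at -0.05 (-1.08 to 0.98) and Hnf4g at 0.23 (-0.17 to 0.63). With 1 library left out Onecut2 ran from -0.65 (without mutant 4) to 0.20 (without mutant 1). Without mutant 1, the library with high Hnf4g, the Hnf4g change was 0.012 (adjusted p 0.955). The edgeR interaction test, of a difference in genotype effect between cohorts, called 0 of the 7 and 0.785% of 17959 genes. The largest fitted differences were those of Gata4, at 2.15 (SE 1.20, 95% interval -0.42 to 4.71), and Onecut2, at 1.44 (SE 1.26, -1.24 to 4.13), so large differences in these lay within the intervals. Gata6 had the smallest adjusted p there (0.205, log2 difference 0.31, SE 0.12) and was the only one with an unadjusted p under 0.05, and DESeq2 also called 0 of 7.

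Between cohorts, some factors were lower at 3 months. In controls 4 of 7 factors fell from 8 days to 3 months, where 22.1% of the 17959 genes tested were called lower and 45.1% were called in either direction. Gata4 averaged 19.5 ± 6.37 CPM (SD, n = 3) in the 8-day controls and 2.58 ± 1.01 CPM (SD, n = 4) in the later ones, 7.52-fold lower (log2 change -2.91, SE 0.91, edgeR adjusted p 0.0175). Hnf4a was 1.20-fold lower (log2 -0.26, SE 0.08, adjusted p 0.0146), Gata6 1.21-fold lower (-0.27, SE 0.09, adjusted p 0.0196) and Cdx2 1.19-fold lower (-0.25, SE 0.10, adjusted p 0.0414). Onecut2 was 4.46-fold lower but did not pass (log2 -2.16, SE 0.92, adjusted p 0.0704), and Cdx1 and Hnf4g gave -0.15 and -0.20 with adjusted p of 0.265 and 0.317. Time after tamoxifen, age and cohort cannot be told apart here. With Rfx6f/f controls only, which leaves 2 controls at 3 months, 0 of the 7 passed. The change stayed as large for Gata4 (-2.95, adjusted p 0.0969), Gata6 (-0.30, 0.0633) and Hnf4a (-0.25, 0.0835), while Cdx2 went to -0.13 (0.366). Marker lists of other cells and tissues also held calls in the same comparison, where 45.1% of all genes were called. The called share was above this for fibroblast, immune, stomach, enteric neuron and glia genes and those of interstitial cells of Cajal. It was near or below it for epithelial (41.7%), mesothelial (40%) and smooth muscle (25%) genes. In controls 1 of 12 epithelial genes was higher and 4 lower at 3 months. The immune (6 of 8), stomach (3 of 4) and mesothelial (2 of 5) lists held only higher calls, 2 of 6 fibroblast genes were higher and 4 lower, and 4 of 7 enteric neuron and glia genes, 2 of 3 genes of interstitial cells of Cajal and 2 of 8 smooth muscle genes were lower. The summed level was 0.275 to 0.760 CPM in 8-day controls and 2.01 to 65.4 CPM in 3-month controls for stomach genes, and 1810 to 2215 CPM and 1043 to 1175 CPM for fibroblast genes. Their part in the members' levels was not tested.

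In mutants of 1 genotype 3 of 7 factors fell, where 19.5% of genes were called lower and 37.8% in either direction. Cdx2 averaged 222 ± 17.9 CPM (SD, n = 4) in the 8-day mutants and 159 ± 12.1 CPM (SD, n = 4) in the later ones, 1.40-fold lower (log2 -0.48, SE 0.09, edgeR adjusted p 0.000801), and the 2 groups did not overlap. Cdx1 was 1.28-fold lower (-0.36, SE 0.10, adjusted p 0.0119) and Hnf4a 1.21-fold lower (-0.27, SE 0.07, adjusted p 0.00846). Marker lists of other cells and tissues held calls here too, most at shares near or below the 37.8% of all genes called. Only the fibroblast list (100%) was far above it. Of 6 fibroblast genes 3 were higher and 3 lower, of 12 epithelial genes 1 was higher and 4 lower, and 1 of 4 stomach genes was higher. Lower were 3 of 8 smooth muscle genes, 2 of 7 enteric neuron and glia genes, 2 of 8 immune genes and 1 of 3 genes of interstitial cells of Cajal. The Cdx1 call was lost without mutants 2 and 4 of 8 days (-0.27, adjusted p 0.112). Gata4 gave -0.76 (SE 0.81, adjusted p 0.484), and -1.69 without mutants 2 and 4 of 8 days, a description only since those libraries were singled out by their low Gata4. Hnf4g gave -0.02 with all libraries and -0.23 (adjusted p 0.0404) without mutant 1 of 3 months. When libraries were scaled by 12 epithelial marker genes, whose summed level ran from 13439 to 16442 CPM at 8 days and from 11405 to 14889 CPM at 3 months, 1 of the 7 passed in controls (Gata4, -2.75) and 1 in mutants (Cdx2, -0.34).

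**Figure D3:**
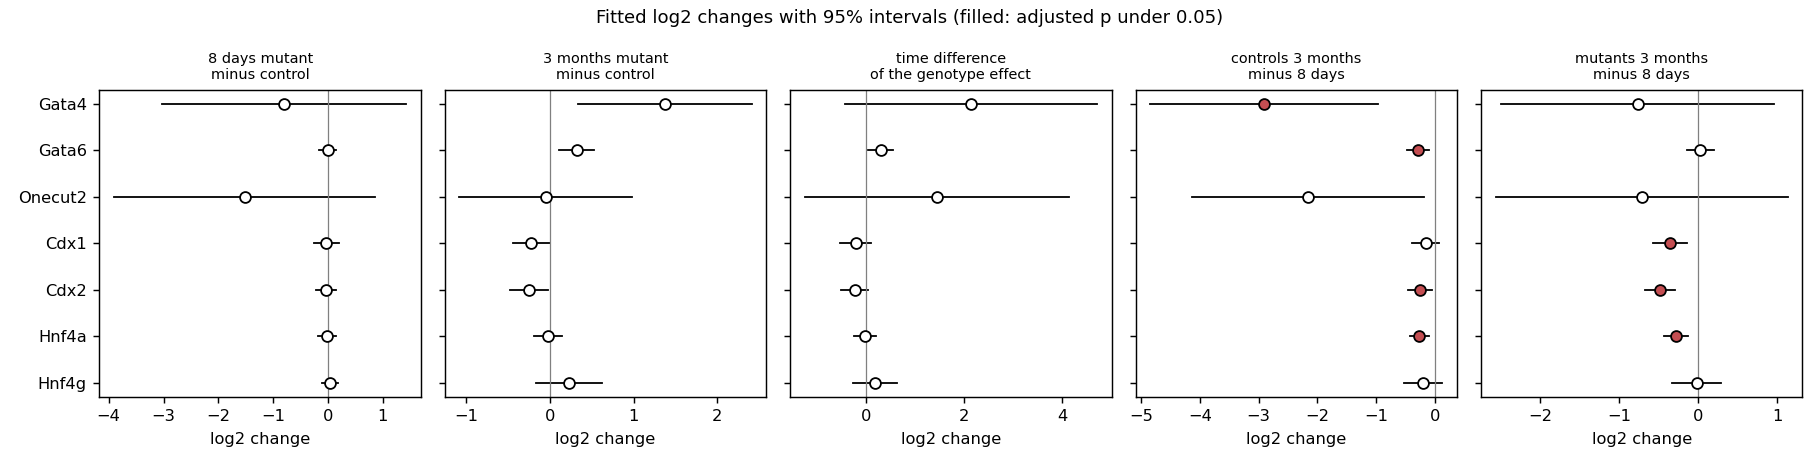
Fitted log2 change of each factor with its 95% interval in 5 comparisons, each on its own axis; filled points have an edgeR adjusted p under 0.05. Calls appear only between cohorts, and the intervals of Gata4 and Onecut2 are far wider than those of the other 5 factors.

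Genes of gut position gave a second view of each library. At 8 days Lct stood at 290, 658 and 642 CPM in controls and at 441, 3.54, 609 and 7.53 CPM in mutants. Fabp1, the proximal fatty acid binding protein, was at 96.1, 211 and 167 CPM in controls and at 139, 10.8, 187 and 12.9 CPM in mutants. Both genes were lowest in mutants 2 and 4, the libraries lowest in Gata4 and Onecut2. The group-centred correlation of Lct with Gata4 was 0.92 over 15 libraries and 0.42 without these 2, while over the 5 other libraries of 8 days it was 0.98. Pdx1, the duodenal and pancreatic homeodomain factor, had no count in mutants 2 and 4, a limit of 0.0603 and 0.0976 CPM at 3 counts each, and stood at 3.30, 7.03 and 0.151 CPM in controls and 0.897 and 1.08 CPM in the other mutants. These floors cover counting error only.

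For the ileal genes the relation to Gata4 varied by gene and cohort. Over the 9 genes the group-centred correlation with Gata4 ran from -0.80 (Slc51a) to -0.06 (Slc10a2) in the 7 libraries of 8 days, and from -0.90 (Slc51a) to 0.15 (Fgf15) without mutants 2 and 4. In the 8 libraries of 3 months it ran from -0.73 (Nr1h4) to 0.86 (Fgf15). Slc10a2 stood at 396, 403 and 378 CPM in controls and at 429, 391, 292 and 302 CPM in mutants, so that mutants 3 and 4, with high and low Gata4, were alike. Fabp6 stood at 2024, 1920 and 1320 CPM in controls and at 1311, 1985, 1055 and 1251 CPM in mutants. Mutant 2, lowest in Gata4, was the highest mutant in Fabp6, while mutant 4 lay near the others.

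**Figure D4:**
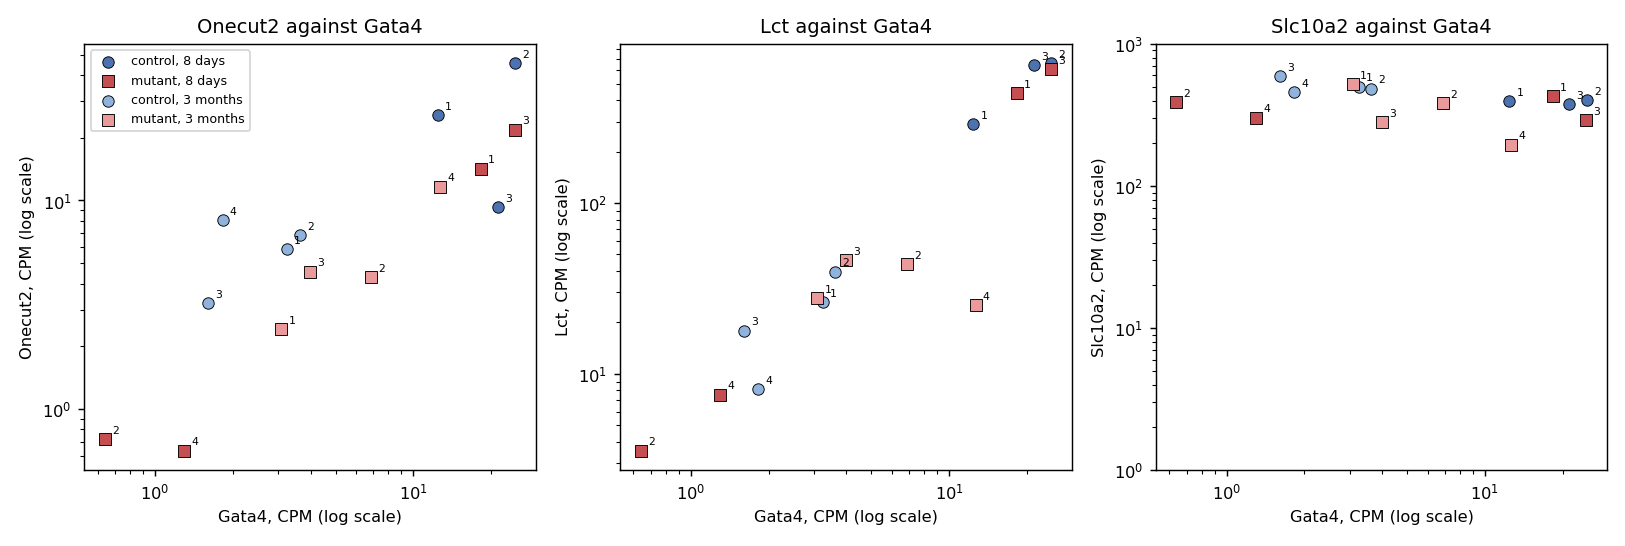
Onecut2, Lct and Slc10a2 (y, CPM, log scale) against Gata4 (x, CPM, log scale) in 15 libraries, marked by group and replicate. Mutants 2 and 4 of 8 days lie at the lower left for Onecut2 and Lct, while Slc10a2 stays between 195 and 596 CPM across the whole Gata4 range.

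Over the lists of regional genes, which were chosen with earlier results of these data known, 8 days gave no call. Of 21 proximal genes tested 0 passed in edgeR (2 at an unadjusted p under 0.05, 1 with DESeq2, 0 with limma-voom), with a median log2 change of -0.06 against -0.002 over all genes. Of 9 ileal genes 0 passed (4 at an unadjusted p under 0.05, 2 with DESeq2, 0 with limma-voom), and of 7 colonic genes 0 passed (0, 0 and 0 by the same measures).

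At 3 months 9 of 20 proximal genes were higher and 1 lower in mutants, where 4.96% and 4.32% of all genes were. The proximal genes had a median log2 change of 0.68 against 0.008 over all genes. Gata4 stood at 1.37 (SE 0.46) and did not pass in edgeR (adjusted p 0.0883), but DESeq2 called it (adjusted p 0.0131). The missed edgeR threshold thus does not show that Gata4 was unchanged. Onecut2 stood at -0.05 (SE 0.46) and did not pass. Among the proximal genes the largest rises were in Slc2a2, the basolateral glucose transporter, and Apoa4, a chylomicron apolipoprotein. Slc2a2 stood at 5.60, 3.36, 3.26 and 3.17 CPM in controls and 111, 42.6, 68.3 and 65.4 CPM in mutants (log2 change 4.23, SE 0.32, edgeR adjusted p 0.000555). Apoa4 stood at 229, 353, 304 and 156 CPM in controls and 2668, 2031, 2590 and 3755 CPM in mutants (3.42, SE 0.28, adjusted p 0.000717). In neither gene did the groups overlap. Apoc3, a lipoprotein gene, rose by 1.84 (adjusted p 0.00269) and Creb3l3, a lipid metabolism factor, by 1.74 (adjusted p 0.000555). Lct, at 26.3, 39.6, 17.8 and 8.10 CPM in controls and 27.6, 43.9, 46.1 and 25.2 CPM in mutants, did not pass (0.66, adjusted p 0.321). Apoa4 shares 632 exon bases with the antisense transcript Gm10680, which held 597 counts over the 15 libraries.

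Of 8 ileal genes tested at 3 months 2 fell, where 4.32% of all genes did, and 0 rose, with a median log2 change of -0.46. Fabp6 stood at 1969, 2691, 2408 and 2482 CPM in controls and 941, 844, 557 and 1151 CPM in mutants (-1.44, SE 0.20, edgeR adjusted p 0.00873). Slc51b, a subunit of the basolateral bile acid exporter, fell by 0.70 on the log2 scale (SE 0.09, adjusted p 0.00613). Neither Fabp6 nor Slc51b overlapped between groups. Slc10a2, at 499, 484, 596 and 459 CPM in controls and 519, 382, 282 and 195 CPM in mutants, did not pass (-0.55, adjusted p 0.188). Its lowest value was in mutant 4, the 3-month library with the most Gata4 and Onecut2. With Rfx6f/f controls only, 3 proximal genes rose and 0 ileal genes passed, with Fabp6 at -1.34 and Slc51b at -0.65.

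Of the immune markers 2 of 8 fell at 3 months and 0 rose, where 4.32% of all genes fell. Fibroblast genes (1 of 6) and genes of interstitial cells of Cajal (1 of 3) also gave a call, both higher. The summed immune level was 245 to 388 CPM in controls and 121 to 252 CPM in mutants. The epithelial markers gave 0 calls of 12 (5 at an unadjusted p under 0.05) with a summed level of 13089 to 14889 CPM in controls and 11405 to 13058 CPM in mutants. The pancreatic acinar genes summed to 37.7 to 1176 CPM in controls and 19.3 to 357 CPM in mutants, with 0 of 5 called. With their summed level as a covariate, Gata6 stood at 0.32 (edgeR adjusted p 0.077), Gata4 at 1.36 (0.0935), Cdx1 at -0.28 (0.0618), Cdx2 at -0.18 (0.129) and Onecut2 at 0.05 (0.936), and 8 proximal genes rose and 2 ileal genes fell.

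Between cohorts 12 of 21 proximal genes fell in controls and 0 rose, where 22.1% of all genes fell, with a median log2 change of -1.09 against 0.02 over all genes. Lct fell by 4.53 (SE 1.22, edgeR adjusted p 0.00778), Slc2a2 by 4.48 (SE 0.48, adjusted p 1.36e-05) and Fabp1 by 2.97 (SE 0.80, adjusted p 0.00807), all on the log2 scale. With Gata4 as a covariate, Lct stood at -0.67 (adjusted p 0.458) and Fabp1 at -0.92 (0.305). Slc2a2 passed in 23 of 23 alternative settings, that one included, at -4.72 to -3.67. The covariate was added after seeing the data, and Gata4 itself did not overlap between the control cohorts. That fit therefore cannot tell Gata4 from cohort, and the part of Gata4 in these falls was not tested. Neither Lct nor Fabp1 passed with Rfx6f/f controls only, where Lct stood at -4.96. Of 9 ileal genes 3 fell in controls against the same 22.1%, Nr0b2, Cubn and Slc51a, while Slc10a2 (0.38, adjusted p 0.219) and Fabp6 (0.44, adjusted p 0.153) did not pass. In mutants 3 proximal genes fell and 2 rose of 21, a share below the 37.8% of all genes called, and 6 of 9 ileal genes fell where 19.5% of all genes did. In controls 6 of 8 immune markers were higher at 3 months, with a sum of 109 to 117 CPM in the 8-day controls.

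**Figure D5:**
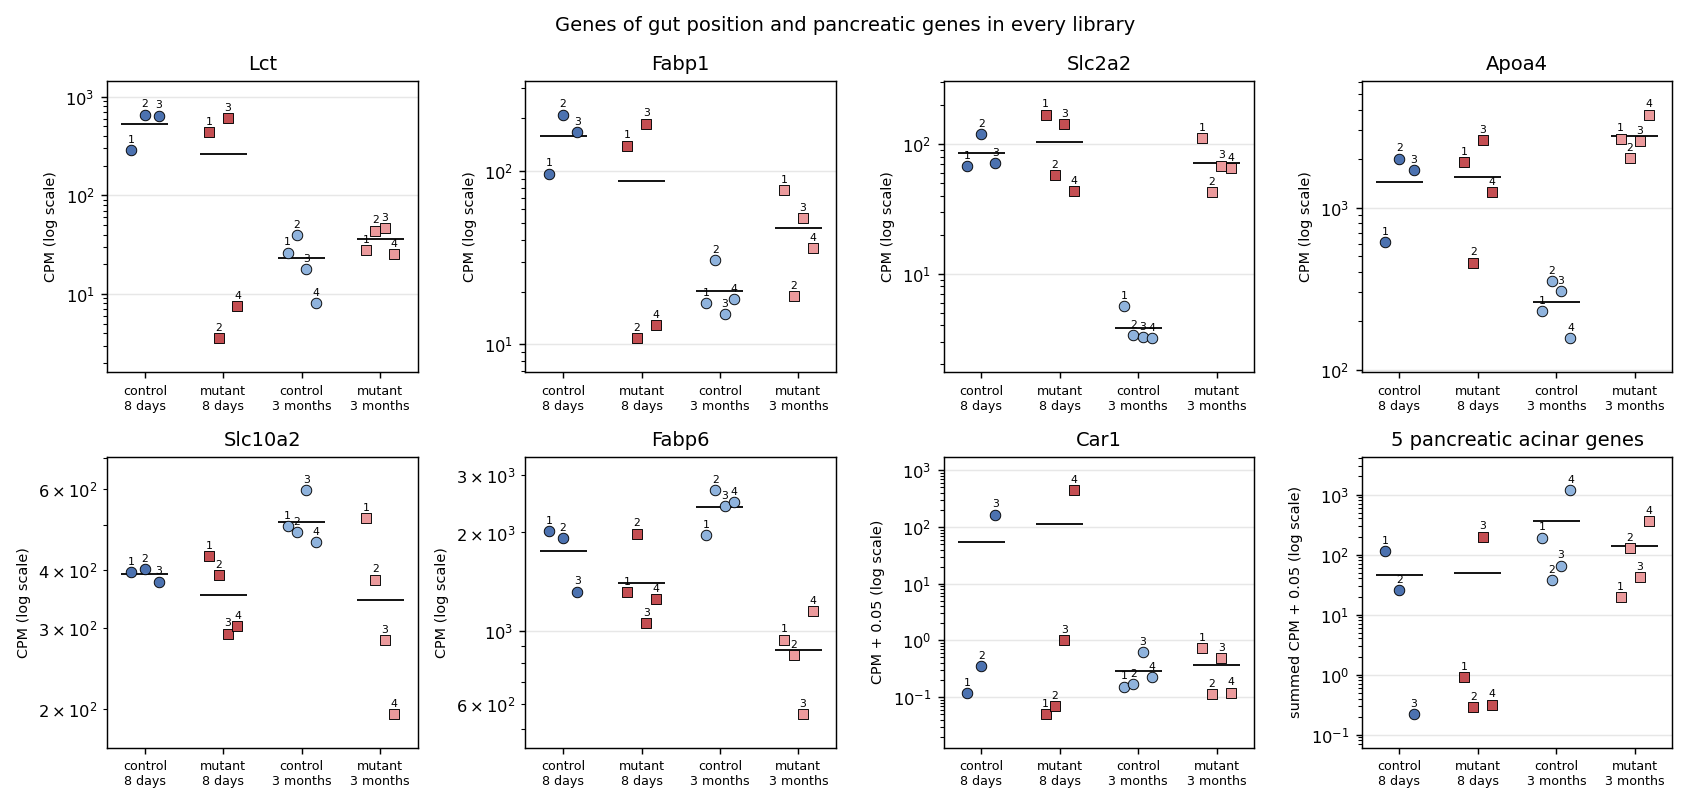
CPM (log scale) of 7 genes of gut position and the sum of 5 pancreatic acinar genes in every library, numbered by replicate, with bars at group means. Lct and Fabp1 are lowest at 8 days in mutants 2 and 4, Slc2a2, Apoa4 and Fabp6 separate the groups of 3 months, and Car1 is high in control 3 and mutant 4 of 8 days.

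Brush border genes and known targets of CDX2 or HNF4 factors gave 1 call of 13 in each genotype comparison, against 0.0915% of all genes at 8 days and 9.28% at 3 months. It was Sis, which encodes sucrase-isomaltase, at 2117, 2788 and 2447 CPM in 8-day controls and 11843, 6670, 8008 and 6255 CPM in 8-day mutants (log2 change 1.74, SE 0.23, edgeR adjusted p 0.0433). At 3 months Sis stood at 1964, 1355, 1917 and 1956 CPM in controls and 13180, 9020, 9150 and 8196 CPM in mutants (2.47, SE 0.19, adjusted p 0.000567). The groups of either cohort did not overlap in Sis. Cdx2, Hnf4a and Hnf4g gave no call in the same tests, which does not show that their levels were unchanged. The 8-day call of Sis was lost when any 1 library other than mutant 1 was left out. Its log2 change with 1 library left out stayed between 1.5 and 1.85. Without the 2 libraries that held Car1 it was 1.84 (adjusted p 0.313). Between cohorts 7 of the 13 genes fell in controls, led by Alpi (-1.54, SE 0.25, adjusted p 0.000262), and 5 of 13 in mutants, led by Myo7b (-0.78, SE 0.14, adjusted p 0.000583), where 22.1% and 19.5% of all genes fell.

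Other epithelial transcription factors and the Hox genes, which mark position along the body axis, gave few calls with genotype. At 8 days 0 of 16 such factors and 0 of 24 Hox genes passed in edgeR, with 0 of each at an unadjusted p under 0.05 and 0 of each with DESeq2 or limma-voom. At 3 months 2 of 16 factors passed, where 9.28% of all genes did. Sox9 rose (0.55, SE 0.14, edgeR adjusted p 0.0411), Prdm1 fell (-0.61, SE 0.15, adjusted p 0.0369), and 1 of 21 Hox genes, Hoxc6, rose (0.50, SE 0.13, adjusted p 0.0449). Sox9 passed in 9, Prdm1 in 8 and Hoxc6 in 8 of 18 alternative settings. Between cohorts 10 of 17 of the factors fell in controls and 9 of 17 in mutants, where 22.1% and 19.5% of all genes did. For Hox genes the counts were 5 of 23 and 3 of 23, near or below those shares, and 1, Hoxa4, rose in mutants. Gata5, the third GATA factor of the epithelium, ranged from 77.1 to 92.5 CPM in the 8-day cohort and from 50.3 to 76.1 CPM in the later one, with the cohorts not overlapping.

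For each factor the genes with the most similar pattern were ranked by Pearson correlation of log2 CPM, centred on group means, over 15 libraries and among 11571 candidates. Gata4 and Onecut2 were alike (r = 0.90, and 0.58 without mutants 2 and 4 of 8 days). Closest to Gata4 were Adh6a (0.96), Nr1i3 (0.95) and Enpp3 (0.95), which without those 2 libraries gave 0.74, 0.88 and 0.81. Closest to Onecut2 were Cyp2b10 (0.97), Nr1i3 (0.95) and Enpp3 (0.95), and 0.85, 0.80 and 0.78 without the 2 libraries. Nr1i3, a nuclear receptor of xenobiotic response, stood at 11.8, 16 and 10.2 CPM in 8-day controls and at 9.02, 2.56, 12 and 2.13 CPM in 8-day mutants. Its low libraries were again mutants 2 and 4, and these values share their library with the factor they are compared with.

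The steadier factors had other nearest genes. For Gata6 they were Cxxc1 (0.92), Vps52 (0.84) and Adrm1 (0.80), for Cdx1 Rnf146 (0.88), Rragc (0.88) and Ubqln2 (0.86), and for Cdx2 Zfp503 (0.97), Tcf21 (0.95) and Nrarp (0.93). For Hnf4a they included St14 (0.91) and Rhpn2 (0.89), and for Hnf4g Adprm (0.95), Lysmd3 (0.93) and Nr2c2 (0.93). The Nr2c2 value was 0.95 over the 8 libraries of 3 months and 0.17 over the 7 of 8 days. Without mutant 1 of 3 months, the library farthest from its group in Hnf4g, the values were 0.78 for Adprm, 0.87 for Lysmd3 and 0.68 for Nr2c2. No member other than Gata4, at rank 7 for Onecut2, was among the 10 nearest genes of another member. Among the 21 pairs of members, Onecut2 and Cdx1 had the most negative value (-0.64, and -0.79 without mutants 2 and 4), and Gata6 with Hnf4a (0.59) and Cdx1 with Hnf4g (0.60) followed Gata4 with Onecut2 on the positive side. The value of Cdx1 with Hnf4g was 0.76 over the 8 libraries of 3 months and 0.28 over the 7 of 8 days. Mutant 1 of 3 months was the library farthest from its group in both of these genes.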

How the data were processed

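Raw read counts per Ensembl gene, not normalized, were deposited in 1 table for each cohort. Per the submitters' processing notes, the build was mm9 and the tools included bcl2fastq 2.17.1.14, Bowtie 1.0.0, TopHat2 2.0.10, Bowtie2 2.1.0 and HTSeq 0.6.1, while annotation release and strand handling were not given in the sources used here. The labels' protocols name ribosomal RNA depletion and 2 extraction methods without saying which sample had which, and the molecule label names polyadenylated RNA. Symbols came from GENCODE M21 on GRCm38 for 32897 of 37620 identifiers (87.4%), and identifiers without a symbol held 0.675% of counts. Groups came from the genotype and time labels, and replicate numbers only name samples in deposit order.

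Genes were tested with edgeR 4.0.16 (R 4.3.3, quasi-likelihood F test, two-sided), after filterByExpr with a minimum count of 10 and TMM scaling, with calls made at a Benjamini-Hochberg threshold of 0.05 over all genes tested. Each cohort was fitted alone for the genotype effect. The interaction and both comparisons between cohorts came from 1 fit of 15 libraries with 4 group means. Log2 CPM used a prior count of 2, and intervals are 95%. Alternatives were DESeq2 1.42.0, limma-voom 3.58.1, RLE or epithelial-marker scaling, other filters, Rfx6f/f controls only, a joint fit, only the groups compared and each library left out. Covariates (Gata4, pancreatic genes) and fits without 2 libraries were added after seeing the data. The tests were checked on simulated counts. In the gene lists Prac1 had no identifier. Named were the members, Rfx6, in each list the called genes with the largest change (at most 4), and the 3 genes nearest to each member, of which 1 is not reported here. Pdx1, Aqp8, Hoxa13, Tff2, Gata5, and Slc10a2, Lct or Fabp1 where not called, were named after their values were seen. The members and lists were chosen with earlier results of these data known. Figures were drawn with matplotlib 3.10.9.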

Additional observations from a re-analysis of the deposited data

Results flagged for a closer look

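The following 3 results met a rule set for a closer look. Rfx6 in mutant 1 of 3 months stood at 3.34 CPM, apart from the other 3 mutants of its group at 2.26 to 2.31 CPM. It was 1 of 24 groups of 4 libraries checked over the 7 members and Rfx6, and chance sets off about 1 in 20 groups, or 1.2 of 24. The same library had the highest Hnf4g value of the series. The genotype effect differed between cohorts for Slc2a2, by a log2 value of 3.96 (SE 0.61, edgeR interaction test, adjusted p 0.0179), and for Apoa4, by 3.30 (SE 0.66, adjusted p 0.0473). Slc2a2 passed in 19 of 23 alternative settings and Apoa4 in 10, with an Apoa4 value of 2.25 to 3.75. For both, the 3-month effect was positive and the 8-day effects were 0.25 and 0.10, with adjusted p of 0.953 and 0.987. With DESeq2 6 proximal genes passed the interaction test, and without mutants 2 and 4 of 8 days 1 did.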

How the results depend on the processing

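No paired analysis was possible because replicate numbers follow deposit order and pair no samples. Leaving out 1 library at a time moved the genes called from 16 to between 8 and 200 at 8 days (200 without mutant 1), from 1586 to between 391 and 1521 at 3 months, and from 141 to between 10 and 749 for the interaction (749 without mutant 1 of 8 days, 10 without control 3 of 8 days). DESeq2 called 178, 2989 and 1013 genes in these comparisons. Without a filter the 8-day count was 27 and the interaction 223, and with 10 counts in every library the interaction was 248. Epithelial scaling gave 30 genes at 8 days and 45 for the interaction, the joint fit 25 at 8 days, and the fit without both Car1 libraries 3. With Gata4 as a covariate 697 genes were called at 3 months (547 shared with the 1586) and 9 for the interaction (9 shared). With Rfx6f/f controls only the counts were 36 at 3 months, 5 for the interaction and 5197 between control cohorts (8093 otherwise). Without mutants 2 and 4 of 8 days the interaction gave 14.

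Members called at 3 months went from 0 to 2 with DESeq2, to 1 with epithelial scaling or the joint fit (Gata6 in each), and to between 0 and 1 with 1 library left out. Between control cohorts they went from 4 to 1 with epithelial scaling, 0 with Rfx6f/f controls only and between 2 and 4 with 1 library left out (2 without control 1 of 8 days). Between mutant cohorts they went from 3 to 1 with epithelial scaling. That scaling shifted the median of all genes by 0.16, 0.12, 0.15 and 0.14 on the log2 scale (8 days, 3 months, controls and mutants between cohorts), and the share of calls that were higher was 66.7%, 84.8%, 70.7% and 72.4%, against 37.5%, 53.5%, 51.0% and 48.4%. Cdx2 between control cohorts kept its call in 8 of 23 alternatives, Gata4 in 21 of 22, Hnf4a in 20 and Gata6 in 19 of 23.

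Car1 between control cohorts went from -7.88 to between -8.68 and 0.26, with 1 library left out, the latter without control 3 of 8 days, and between mutant cohorts from -8.39 to between -9.02 and 0.14, the latter without mutant 4 of 8 days. Aqp8 between mutant cohorts went from -4.81 to between -5.23 and 1.60, the latter without mutant 4 of 8 days, and to 1.05 without mutants 2 and 4. The cause of these shifts with scaling or tool was not tested. Gata4 and Onecut2 had the lowest counts of the members, 19 to 53 in their lowest libraries. The part of depth in their spread was not tested.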

Other observations

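Besides the immune list, markers of 5 other cell types were tested with edgeR at 3 months, where 9.28% of all genes passed. At 3 months 0 of 8 smooth muscle genes (3 at an unadjusted p under 0.05), 1 of 6 fibroblast genes, 0 of 5 mesothelial genes (0 at an unadjusted p under 0.05), 0 of 7 enteric neuron and glia genes (1 at an unadjusted p under 0.05) and 1 of 3 genes of interstitial cells of Cajal passed, both higher in mutants. Fitted changes were above 0 in 8 of 8 smooth muscle, 7 of 7 neuron and glia, 5 of 6 fibroblast, 3 of 3 Cajal and 0 of 5 mesothelial genes. At 8 days none of these lists gave a call, nor did the 8 immune genes, of which 5 had an unadjusted p under 0.05. The summed immune level at 8 days was 112, 183, 348 and 370 CPM in mutants 1 to 4, so that mutants 2 and 4, low in Gata4, lay on either side of mutant 3.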
